A study of Mus musculus with 4 samples.

Results

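The Krüppel-like factor (KLF) genes encode DNA-binding proteins with a C-terminal array of C2H2 zinc fingers, and 10 of them are described here in LSK cells, the lineage-negative, SCA-1+, c-KIT+ bone marrow cells that hold hematopoietic stem and progenitor cells. *Klf2*, *Klf3*, *Klf4*, *Klf6*, *Klf7*, *Klf9*, *Klf10*, *Klf11*, *Klf12* and *Klf13* were taken by their gene symbols, and all 10 were found among the 18598 listed genes. *Klf1*, the erythroid member of the family, was kept apart. RNA-seq was available for 2 libraries of *Bptf*-deleted LSK cells (Bptf-cKO, genotype *Bptf* -/-, from *Bptf* f/f mice with *Mx1*-cre) and 2 libraries of control LSK cells (*Bptf* f/f littermates without cre). Each library came from the pooled cells of 5 C57BL/6 mice of about 3 months, sorted 10 days after cre induction. Both genotypes were given pIpC, an inducer of interferon that switches on *Mx1*-cre, and only the deleted mice carried cre, so loss of BPTF and presence of cre cannot be told apart. *Mx1*-cre acts in interferon-responsive cells and is not restricted to blood stem cells.

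KLF proteins bind CACCC and GC-rich elements in promoters and enhancers, and the proteins differ mainly in the regions outside their zinc fingers, which recruit either activators or corepressors such as CtBP and SIN3A. *Klf2*, *Klf4*, *Klf6* and *Klf10* are known as genes that respond quickly to outside signals, as *Fos* and *Egr1* do. In blood, KLF2 is known for keeping lymphocytes quiescent and for their trafficking, KLF4 for monocyte differentiation, and KLF2 and KLF4 for their place in the pluripotency network of embryonic stem cells.

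The library totals and the targeted gene frame the values that follow. Reads on listed genes ranged from 14091054 to 30134742 per library, and each KLF gene had at least 17 reads in every library. *Bptf* fell from 5520 and 5850 normalized counts in the controls to 3398 and 3320 in Bptf-cKO (log2 fold change -0.76, limma adjusted p = 0.0439). The LSK markers *Kit*, *Ly6a*, *Cd34*, *Flt3* and *Gata2* were detected in all 4 libraries. Their log2 fold changes lay between -0.76 and 0.35, and limma called 0 of the 5, against 0.740% of all tested genes in either direction. An unadjusted p under 0.05 in limma was found for 1, against 15.7% of all tested genes. Control replicate 2 stood apart, with a summed normalized count of 187183 for 18 immediate-early genes against 83146 in control replicate 1 and 30194 and 33779 in Bptf-cKO. Its summed count of 6 granule and myeloid markers was 11754, against 46315 to 58260 in the other libraries. Both replicate 2 libraries also held pluripotency transcripts that the replicate 1 libraries lacked. Because these are bulk samples, fewer cells that express a gene and less RNA of it per cell cannot be told apart.

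The promoters of 4 members are shown. They are *Klf2*, *Klf4* and *Klf6*, which had the widest differences between genotypes, and *Klf13*, whose values were higher in both Bptf-cKO libraries. Values of *Klf12* were also lower, and those of *Klf7* also higher, in both Bptf-cKO libraries, and their promoters are not shown. None of these genes passed in limma. Each line gives the 250 bases before the RefSeq transcription start on GRCm38.p6, written along the gene's strand. Capitals mark the CACCC element, the CCAAT box and the GC box GGGCGG on either strand and, in *Klf2*, a MEF2 site. The *Klf2* window is chr8:72318812-72319061 on the plus strand, that of *Klf4* is chr4:55532476-55532725 on the minus strand, that of *Klf6* is chr13:5861239-5861488 on the plus strand, and that of *Klf13* is chr7:63938916-63939165 on the minus strand. The RefSeq starts of *Klf2* and *Klf6* lie inside the GENCODE genes, so the last bases of these windows are within the GENCODE transcripts.
Klf2: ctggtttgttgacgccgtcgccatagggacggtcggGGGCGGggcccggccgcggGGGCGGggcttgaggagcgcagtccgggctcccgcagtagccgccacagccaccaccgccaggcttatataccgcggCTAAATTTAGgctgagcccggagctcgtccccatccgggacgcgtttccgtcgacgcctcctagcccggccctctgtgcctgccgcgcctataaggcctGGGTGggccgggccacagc
Klf4: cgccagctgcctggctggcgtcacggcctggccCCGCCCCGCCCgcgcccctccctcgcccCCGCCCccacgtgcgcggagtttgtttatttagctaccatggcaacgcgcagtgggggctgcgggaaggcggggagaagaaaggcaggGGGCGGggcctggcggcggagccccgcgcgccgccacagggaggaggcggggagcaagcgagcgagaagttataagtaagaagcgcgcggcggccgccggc
Klf6: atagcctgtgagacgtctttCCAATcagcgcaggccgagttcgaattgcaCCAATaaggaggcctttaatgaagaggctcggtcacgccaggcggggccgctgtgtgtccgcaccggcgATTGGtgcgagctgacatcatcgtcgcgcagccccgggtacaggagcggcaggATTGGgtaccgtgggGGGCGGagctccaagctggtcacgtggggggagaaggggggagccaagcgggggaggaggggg
Klf13: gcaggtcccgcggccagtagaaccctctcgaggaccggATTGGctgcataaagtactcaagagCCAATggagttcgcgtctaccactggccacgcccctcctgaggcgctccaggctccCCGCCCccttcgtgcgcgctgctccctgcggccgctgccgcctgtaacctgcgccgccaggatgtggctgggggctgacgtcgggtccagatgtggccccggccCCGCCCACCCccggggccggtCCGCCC

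Promoters were given for 9 of the 10 genes, all but *Klf10*, and motifs were searched on both strands of these 250 bases and of 32851 RefSeq promoters of the same length. The *Klf2* promoter held 1 MEF2 site, CTAAATTTAG, between 118 and 109 bases before the start, and a MEF2 site was present in 2.92% of all promoters and in none of the other 8 KLF promoters searched. MEF2 factors are known regulators of *Klf2* and *Klf4* downstream of the kinases MEKK3 and ERK5. GGGCGG, the GC box, occurred 2 times in *Klf2*, 4 times in *Klf4*, 1 time in *Klf6* and 3 times in *Klf13*. A match was present in 32.7% of all promoters. These windows were GC-rich, with 71.2%, 74.0%, 64.8% and 71.6% G or C in the same order, against a median of 52.4% over all promoters. The CCAAT box occurred 4 times in *Klf6*, 2 times in *Klf13* and was not found in *Klf2* or *Klf4* (33.8% of all promoters). CACCC was found 1 time in each of *Klf2* and *Klf13* and not in *Klf4* or *Klf6* (52.0% of all promoters). In *Klf4* a pair of GGGCGG matches shared 1 base, and in *Klf13* a GGGCGG and the CACCC match shared 1 base. The AP1 site TGACTCA, the cAMP response element TGACGTCA and the serum response CArG box were found in none of the 9 windows, and in 4.46%, 1.55% and 1.47% of all promoters. These are matches of letters in a short window and not measured binding sites.

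*Klf2*, *Klf4* and *Klf6* had the widest differences between genotypes, and the control mean of *Klf2* was 13.7-fold its Bptf-cKO mean. *Klf2* (chromosome 8, 72319033 to 72321656 in GENCODE vM21 on GRCm38) had 1477 normalized counts in control replicate 1, 9670 in control replicate 2, and 396 and 419 in the Bptf-cKO libraries. Both Bptf-cKO libraries were below both control libraries, and the control libraries themselves were 6.55-fold apart, while the Bptf-cKO libraries were 1.06-fold apart. The lowest control library was still 3.53-fold above the highest Bptf-cKO library. The control mean was 5574 ± 5793 (SD, n = 2) and the Bptf-cKO mean 408 ± 15.98 (SD, n = 2). limma compares the means of the log2 values, on which the single high control library weighs less than on the ratio of the means, and there *Klf2* differed by -3.21 ± 0.84 (log2, standard error) with an adjusted p of 0.181. *Klf2* therefore did not pass the threshold of 0.05 in limma, nor in edgeR (adjusted p = 0.163), and it passed in DESeq2 (adjusted p = 0.0255).

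*Klf4* (chromosome 4, 55527143 to 55532466), which encodes a zinc finger protein known for inducing the cell cycle inhibitor p21, had 517 and 2583 normalized counts in the controls and 158 and 274 in Bptf-cKO. The groups did not overlap, the control libraries were 5.00-fold apart and the Bptf-cKO libraries 1.73-fold apart. Its control mean of 1550 ± 1461 (SD, n = 2) was 7.18-fold the Bptf-cKO mean of 216 ± 81.9 (SD, n = 2). The difference of the mean log2 values in limma was -2.47 ± 0.76 (standard error) and its adjusted p was 0.230.

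*Klf6* (chromosome 13, 5861482 to 5870394), a broadly expressed member induced on stress and injury, had the most reads of the 10 genes in 3 of the 4 libraries, and *Klf13* had more in Bptf-cKO replicate 1. *Klf6* had 4375 and 18699 normalized counts in the controls and 2552 and 2947 in Bptf-cKO. Again the controls were apart, by 4.27-fold, and the lowest control was 1.48-fold above the highest Bptf-cKO library. The control mean was 11537 ± 10129 and the Bptf-cKO mean 2750 ± 279 (SD, n = 2 each). On the scale of mean log2 values *Klf6* differed by -1.72 ± 0.65 (standard error) at an adjusted p of 0.302 in limma.

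*Klf12* (chromosome 14, 99870632 to 100284679), which encodes a repressor that binds CtBP, had few reads and a small spread. It had 49.6 and 62.4 normalized counts in the controls, from 64 and 45 reads, and 27.9 and 24.0 in Bptf-cKO, from 43 and 17 reads. Both Bptf-cKO libraries were below both controls, and control replicate 2 was 1.26-fold above control replicate 1, a smaller gap than for *Klf2*, *Klf4* and *Klf6*. Its difference in limma was -1.07 ± 0.36 (log2, standard error), with 0.256 as the adjusted p.

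**Figure D1:**
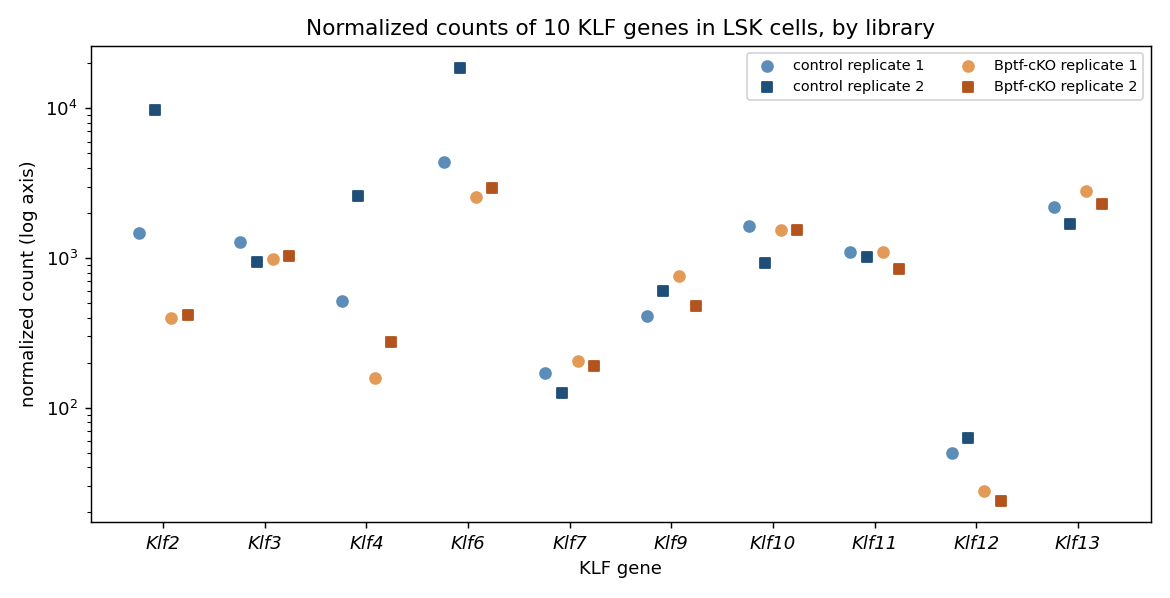
Normalized counts (vertical log axis) of the 10 KLF genes (horizontal axis) in each of the 4 LSK libraries, with 1 point per library, blue for control and orange for Bptf-cKO. Control replicate 2 is far above the other libraries for *Klf2* (9670), *Klf4* (2583) and *Klf6* (18699), and the 4 libraries lie close together for *Klf3*, *Klf11* and *Klf13*.

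*Klf13* and *Klf7* were the members whose Bptf-cKO libraries both lay above both controls. *Klf13* (chromosome 7, 63886351 to 63938915), known for activating the chemokine gene *Ccl5* in T cells, had 2195 and 1684 normalized counts in the controls and 2804 and 2301 in Bptf-cKO. The nearest libraries of the 2 groups differed by 1.05-fold. The log2 fold change in limma was 0.40 ± 0.17 (standard error) at an adjusted p of 0.352. *Klf7* (chromosome 1, 64029447 to 64122282), known from the development of the nervous system, had 171 and 126 normalized counts in the controls and 207 and 190 in Bptf-cKO, which gave a log2 fold change of 0.43 ± 0.24 (standard error) and an adjusted p of 0.456 in limma. Antisense transcripts overlap exons of *Klf7* and of *Klf3*, and whether the counting used strand is not given in the sources used here, so reads of these 2 genes and of their antisense partners may be mixed.

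The libraries of the remaining 4 members overlapped between genotypes. *Klf10*, the TGF-beta-inducible member that recruits SIN3A, had 1649 and 930 normalized counts in the controls and 1543 and 1528 in Bptf-cKO (log2 fold change 0.31, 95% confidence interval -0.38 to 1.00). Control replicate 2 was the lowest library for *Klf10*, the opposite of its place for *Klf2*, *Klf4* and *Klf6*. *Klf11*, a close relative of *Klf10*, had 1103 and 1012 in the controls and 1100 and 840 in Bptf-cKO (log2 fold change -0.14, interval -0.55 to 0.28). *Klf3*, a CtBP-binding repressor, had 1277 and 934 in the controls and 985 and 1034 in Bptf-cKO (log2 fold change -0.11, interval -0.55 to 0.33). *Klf9*, known to respond to glucocorticoid and thyroid hormone, had 409 and 599 in the controls and 756 and 480 in Bptf-cKO (log2 fold change 0.28, interval -0.45 to 1.02). The limma adjusted p-values of these 4 genes ran from 0.653 to 0.821.

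**Figure D2:**
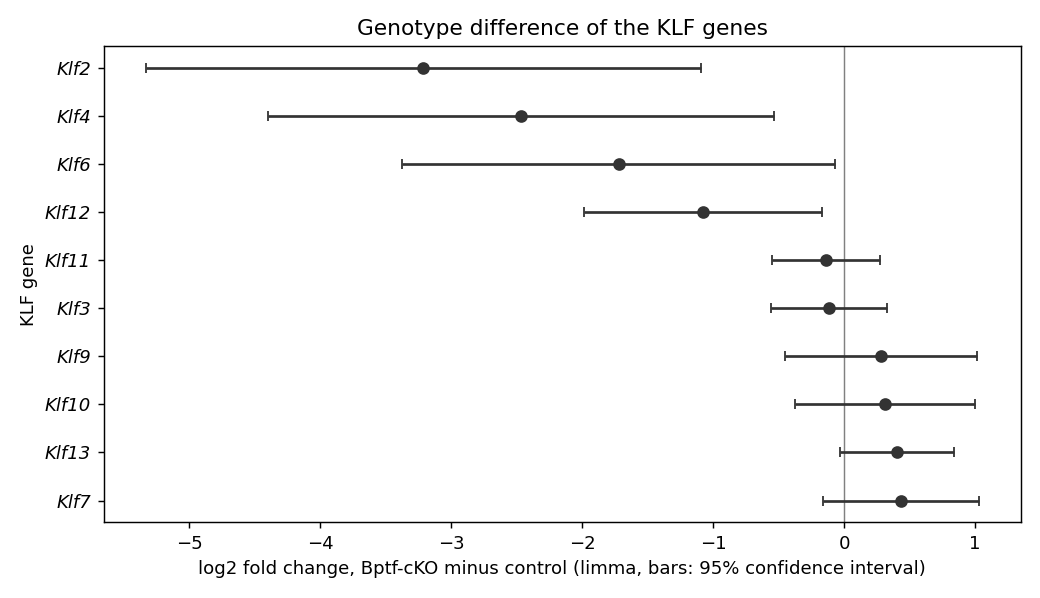
Log2 fold change of Bptf-cKO minus control (horizontal axis) for each KLF gene (vertical axis), with points for the limma estimate and bars for its 95% confidence interval from 2 libraries per genotype. The intervals of *Klf2*, *Klf4*, *Klf6* and *Klf12* lie below 0 before adjustment over all genes, and those of the other 6 genes include 0.

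Over all 14858 genes tested with limma, 0.370% were called lower and 0.370% higher at an adjusted p under 0.05, and 0 of the 10 KLF genes were called in either direction. At an unadjusted p under 0.05, 4 of the 10 were lower (*Klf2*, *Klf4*, *Klf6* and *Klf12*) and none was higher, against 8.96% of all tested genes that were lower at this level and 15.7% that passed it in either direction. In edgeR 0 of the 10 were called, against 0.633% of all genes in either direction, and in DESeq2 1 was called lower and 0 higher, against 3.30% and 2.14% of all genes. With a term for the replicate number, limma called *Klf2*, *Klf4* and *Klf6* lower and *Klf13* higher. This fit called 8.36% of all genes lower and 6.03% higher. DESeq2 with the term called only *Klf4*, lower, against 3.77% lower and 2.57% higher of all genes. Labels do not say whether the number marks a shared experiment. Both Bptf-cKO libraries were below both controls for 4 of the 10 KLF genes and for 23.8% of all tested genes, and above both controls for 2 of the 10 and for 23.2% of all. The Bptf-cKO mean was under 0.5 of the control mean for these 4 genes, and for 5.48% of all tested genes. The median log2 fold change of the KLF genes was -0.13, and that of all tested genes was 0.0010. The KLF median was -0.033 without control replicate 1, -0.27 without control replicate 2, -0.21 without Bptf-cKO replicate 1 and -0.045 without Bptf-cKO replicate 2. For one gene, exact permutation of 2 against 2 libraries reaches no p lower than 0.333, two-sided.

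Which library is left out decides the calls. Without control replicate 2, *Klf2* had a log2 fold change of -1.86 and passed in limma (adjusted p = 0.0348), while *Klf4* and *Klf6* had -1.31 and -0.67 and did not (limma adjusted p = 0.229 and 0.154), and 0.114% of all genes were called lower. Without control replicate 1, *Klf2*, *Klf4* and *Klf6* had -4.56, -3.63 and -2.77 and all passed (limma adjusted p = 0.00186, 0.0340 and 0.00779), against 0.276% of all genes called lower. With either Bptf-cKO library left out none of the 10 genes passed in limma, where 0 genes were called lower and 1 higher of all 14858, so these fits say nothing about the KLF genes. In each of these fits the lone library is assumed to vary like the other genotype's.

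Per length, the order of the KLF genes differed between genotypes and also between the control libraries. *Klf4* was at place 6 in control replicate 1 and 3 in control replicate 2, and *Klf10* at 3 and 6. On the scale of normalized counts per kilobase of union exon length, *Klf6* had 997 and *Klf2* 799 in control replicate 1, where they were the first and second of the 10, and *Klf2* had 5227 and *Klf6* 4259.5 in control replicate 2, where *Klf4* followed with 847. In Bptf-cKO the level of *Klf6* was again the first, with 581 and 671, followed by *Klf10* (369 and 366) and *Klf13* (372 and 306), whose ranges overlapped. *Klf2*, with 214 and 227, came next with *Klf11*, with 253 and 193, and their ranges overlapped. *Klf4*, with 51.8 and 89.7, overlapped with *Klf3*, with 87.7 and 92.0. The levels of *Klf7* (25.4 and 23.4) and *Klf12* (3.998 and 3.43) were the lowest in Bptf-cKO, as in both control libraries.

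*Klf2*, *Klf4* and *Klf6* together made up 48.2% and 85.3% of the summed normalized counts of the 10 genes in the control libraries, in the order of their numbers, and 29.5% and 36.3% in the Bptf-cKO libraries. Their sum was 6369 and 30953 in the controls and 3107 and 3640 in Bptf-cKO. The other 7 genes summed to 6854 and 5347 in the controls and to 7423 and 6397 in Bptf-cKO, so the sums of these 7 overlapped between genotypes.

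**Figure D3:**
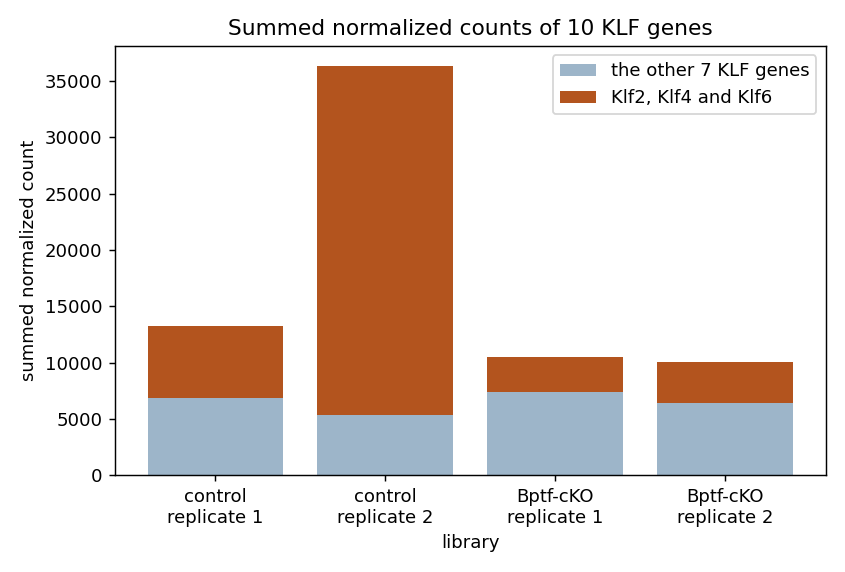
Summed normalized counts (vertical axis, from 0) of the 10 KLF genes in each library, divided into *Klf2*, *Klf4* and *Klf6* (brown) and the other 7 genes (grey-blue). The brown part ranges from 3107 in Bptf-cKO replicate 1 to 30953 in control replicate 2, and the grey-blue part from 5347 to 7423.

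The immediate-early genes, a list of 18 that holds no KLF gene, varied between the control libraries too. Control replicate 2 was the highest of the 4 libraries for 16 of the 17 that could be tested and for 4 of the 10 KLF genes, against 26.3% of all tested genes. It was more than 2 times control replicate 1 for 9 of the 17, for 3 of the 10 KLF genes (*Klf2*, *Klf4* and *Klf6*) and for 3.89% of all. The most abundant of the list, *Fosb*, *Fos* and *Jun*, which encode AP1 subunits, were 3.25-fold, 2.30-fold and 2.12-fold higher in control replicate 2 than in control replicate 1, smaller gaps than the 6.55-fold of *Klf2*. Both Bptf-cKO libraries were below both controls for 12 of the 17, against 23.8% of all tested genes. *Zfp36*, an mRNA-decay factor that fell by 1.99 on the log2 scale, was the 1 gene of the list that passed in limma (adjusted p = 0.0368). limma called 0.370% of all tested genes lower. In DESeq2 9 of the 17 were called lower (*Fos*, *Fosb*, *Jun*, *Junb*, *Jund*, *Ier2*, *Dusp1*, *Zfp36* and *Btg2*), against 3.30% of all genes. The part of immediate-early induction during tissue handling in the KLF values was not tested.

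**Figure D4:**
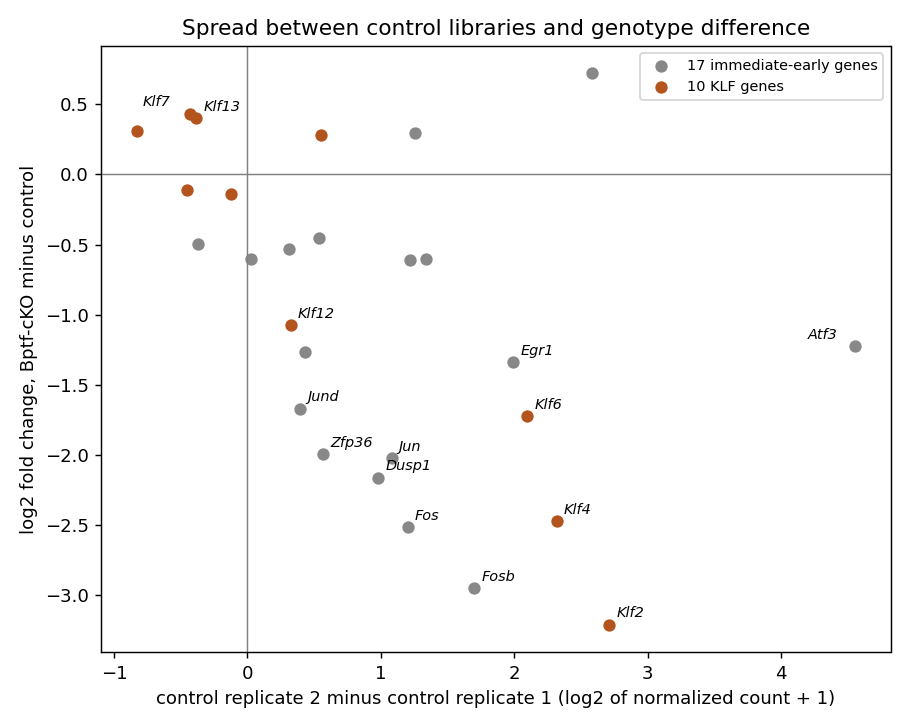
Difference between control replicate 2 and control replicate 1 (horizontal axis, log2 of normalized count plus 1) against the log2 fold change of Bptf-cKO minus control (vertical axis) for the 10 KLF genes (brown) and 17 immediate-early genes (grey). Both axes use the control libraries. *Klf2*, *Klf4* and *Klf6* lie at the lower right, in the same quadrant as *Fosb*, *Fos* and *Egr1* and farther right than *Fosb* and *Fos*. The other KLF genes lie within 1 log2 unit of 0 on the horizontal axis.

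*Klf2* and *Klf4* are also expressed in embryonic stem cells, and pluripotency transcripts separated the replicate numbers. Of 13 pluripotency genes, none of them a KLF gene, 11 were listed, and 7 of these were at 0 in each replicate 1 library and none was at 0 in a replicate 2 library. Their summed normalized count was 123 and 143 in replicate 1 of control and Bptf-cKO and 1128 and 1439 in replicate 2. *Pou5f1*, which encodes OCT4, had 582 normalized counts in control replicate 2 and 738 in Bptf-cKO replicate 2 and was at 0 in both replicate 1 libraries. Between the replicate 1 libraries, 1 per genotype, the control was 3.73-fold above Bptf-cKO for *Klf2*, 3.27-fold for *Klf4* and 1.71-fold for *Klf6*. Between the replicate 2 libraries it was 23.1-fold, 9.44-fold and 6.34-fold above. No spread can be given for these ratios of single libraries. The part of pluripotent cells in the replicate 2 values was not tested.

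Markers of other cells were read beside the KLF genes, among them T cells and endothelium, which express *Klf2* strongly. Of 5 T cell markers, *Cd3e*, *Cd3d*, *Cd3g* and *Cd8a* were not listed and *Cd5* had at most 14.0 normalized counts. All 5 endothelial markers were listed, with sums of 3738 and 3087 in the controls and 3398 and 3495 in Bptf-cKO. *Cdh5* had at most 9.70 normalized counts, so nearly all of these sums came from the other markers. Whether endothelial cells were present was not tested. The 5 macrophage markers summed to 1160 and 620 in the controls and 529 and 966 in Bptf-cKO, and the 5 B cell markers to 5461 and 1559 against 3096 and 1916, with *Ms4a1* at 0 in Bptf-cKO replicate 2. The 6 erythroid markers summed to 2973 and 2308 in the controls and 898 and 945 in Bptf-cKO, and *Epor*, the erythropoietin receptor gene, fell by 1.96 on the log2 scale (limma adjusted p = 0.0443). The 4 megakaryocyte markers summed to 5248 and 2937 in the controls and 4212 and 3635 in Bptf-cKO. The part of a changed mixture of progenitors in the KLF values was not tested.

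Among the other genes of the family, 9 of 16 KLF and SP genes were listed and 8 could be tested. limma and edgeR called 0 of the 8, against 0.740% and 0.633% of all tested genes in either direction. DESeq2 called 1 lower, against 3.30% of all tested genes. An unadjusted p under 0.05 in limma was found for 1 of the 8, against 15.7% of all. *Klf1*, the regulator of globin and red cell genes, had 367 and 143 normalized counts in the controls and 57.8 and 49.4 in Bptf-cKO, a difference of -2.08 on the log2 scale (adjusted p = 0.142 in limma and 9.73e-04 in DESeq2). Its highest library was control replicate 1, unlike *Klf2*, *Klf4* and *Klf6*. *Klf8*, the third CtBP-binding member beside *Klf3* and *Klf12*, had 261 and 305 in the controls and 192 and 214 in Bptf-cKO (log2 fold change -0.47, limma adjusted p = 0.317). *Sp1*, the general GC-box factor, was at 4976 to 5305 in the 4 libraries.

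The listed transcripts of KLF cofactors and of 1 upstream pathway had small mean differences between genotypes. Some varied between libraries of a genotype, such as *Mef2d*, with 5369 and 3418 normalized counts in the controls (1.57-fold apart). Of 11 KLF cofactor genes, which include the corepressors *Ctbp1*, *Ctbp2*, *Sin3a* and *Sin3b* and the acetyltransferases *Crebbp* and *Ep300*, limma, edgeR and DESeq2 called 0. Of all tested genes these fits called 0.740%, 0.633% and 5.44% in either direction. Log2 fold changes of the 11 lay between -0.33 and 0.21, with 1 at an unadjusted limma p under 0.05, against 15.7% of all tested genes. Of 10 genes of the MEKK3-ERK5-MEF2 axis and of the CCM complex that restrains it, limma and edgeR called 0, against the same 0.740% and 0.633%. Here the log2 fold changes lay between -0.40 and 0.20, with 1 at an unadjusted limma p under 0.05, against the same 15.7%. The lowest was *Mef2c*, with 4238 and 3906 normalized counts in the controls and 3099 and 3046 in Bptf-cKO (log2 fold change -0.40, limma adjusted p = 0.144), which DESeq2 called lower (adjusted p = 0.0344). *Mapk7*, which encodes ERK5, had 736 and 581 in the controls and 669 and 546 in Bptf-cKO.

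Genes known as KLF targets in lymphocytes, endothelium or fibroblasts went in both directions. Of the 9 on the list 8 were listed, and 0 passed in limma or edgeR, against 0.740% and 0.633% of all tested genes in either direction. An unadjusted p under 0.05 in limma was found for 4, against 15.7% of all tested genes. *S1pr1*, which KLF2 activates in T cells, overlapped between genotypes, with 496 and 362 normalized counts in the controls and 420 and 365 in Bptf-cKO. *Itgb7*, an integrin subunit of lymphocyte homing, had 914 and 696 in the controls and 1628 and 2101 in Bptf-cKO, 1.21 higher on the log2 scale (adjusted p = 0.0751 in limma), and DESeq2 called it higher (adjusted p = 8.82e-06). *Cdkn1a*, which encodes p21, had 795 and 213 in the controls and 1676 and 1486 in Bptf-cKO (log2 fold change 1.93, limma adjusted p = 0.228). *Smad7*, an inhibitor of TGF-beta signalling, had 781 and 603 in the controls and 481 and 295 in Bptf-cKO (log2 fold change -0.86, limma adjusted p = 0.245). *Eng*, a TGF-beta co-receptor gene, had 5254 and 5574 in the controls and 3939 and 4703 in Bptf-cKO (log2 fold change -0.33, limma adjusted p = 0.281).

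Glucocorticoid-responsive genes, listed beside *Klf9*, were 5 in number. limma and edgeR called 0 of them, against 0.740% and 0.633% of all tested genes in either direction. An unadjusted p under 0.05 in limma was found for 1 of the 5, against 15.7% of all tested genes. *Tsc22d3*, which encodes GILZ, had 4513 and 5262 normalized counts in the controls and 3469 and 2053 in Bptf-cKO (log2 fold change -0.87, limma adjusted p = 0.217, DESeq2 adjusted p = 0.0344). *Fkbp5* had 3313 and 3755 in the controls and 4939 and 3335 in Bptf-cKO. For *Fkbp5*, as for *Klf9*, Bptf-cKO replicate 1 was the highest library.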

How the data were processed

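RNA-seq of sorted LSK cells was analysed in 4 libraries, grouped by the sample labels. The authors deposited a signal per gene and library, the gene counts divided by a size factor, with their mean and their own comparison (log2 fold changes with errors, a test score, p-values and adjusted p-values), whose columns were not used. Per the labels, HISAT2, featureCounts, DESeq2, GRCm38 and mm10 were among the tools and builds, with no role given. Dividing each value by the smallest one above 0 in the same library returned whole reads (100% of values within 0.001 reads). Listed genes held 11 reads or more in all.

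The 14858 genes whose normalized counts averaged 10 or more were tested after adding a pseudocount of 1 and taking log2, a scale that understates changes of low genes, with limma 3.58.1 in R 4.3.3 (mean-variance trend, genotype only, two-sided, Benjamini-Hochberg over these genes). edgeR 4.0.16 (94 genes called) and DESeq2 1.42.0 (808) were run on the recovered reads. These tools, each with and without a term for the replicate number, were also run on simulated counts. The simulation held no replicate effect and did not imitate the wide spread between the controls, so it does not test how the fits handle these. The other alternative fits were not simulated. Labels do not say whether each pool is an independent experiment, so p-values measure the spread between these libraries. Coordinates, exon lengths and overlaps came from GENCODE vM21 by symbol, promoters from RefSeq (GRCm38.p6). The members and lists were chosen with earlier results of these data known. All 10 members are named. The values of 1 gene on the KLF target list are not reported here. The rule for other lists was to name genes that passed in limma or in edgeR with the replicate block, and the 3 most abundant of some lists. Only some of those that met it are described, and further genes were chosen after their values were seen. Python 3.11.15, numpy 2.4.6 and pandas 2.3.3 summarised the fits.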

Additional observations from a re-analysis of the deposited data

How the results depend on the processing

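Depth limits *Klf12*, with 17 to 64 reads per library, and 2 libraries per genotype limit the other KLF genes. The median log2 fold change of the 10 genes (-0.13) ran from -0.27 to -0.033 with 1 library left out, was -0.073 with libraries recentred on their medians and lay between -0.14 and -0.11 in the other alternatives. *Klf2*, *Klf4*, *Klf6*, *Klf7*, *Klf12* and *Klf13* kept their direction in every alternative that held them, and a mean of at least 50 removed *Klf12*. Leaving out 1 library at a time, the log2 fold change ran from -0.34 to 0.11 for *Klf3*, from -0.045 to 0.61 for *Klf9*, from -0.10 to 0.72 for *Klf10* and from -0.33 to 0.059 for *Klf11*. The direction turned without control replicate 1 for *Klf3* (0.11), without Bptf-cKO replicate 1 for *Klf9* (-0.045), without control replicate 2 for *Klf10* (-0.10) and without Bptf-cKO replicate 2 for *Klf11* (0.059).

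Libraries with the same replicate number deviated together from their group means (correlation 0.452 across the 14858 tested genes and 0.638 across the 10815 with a mean of at least 100), but the labels give only a shared number, so the replicate block is an alternative. With the replicate block, limma called 3 KLF genes lower (*Klf2*, *Klf4* and *Klf6*, adjusted p = 3.43e-04, 1.05e-04 and 0.00252) and 1 higher (*Klf13*, 0.0115), and edgeR with the block called the same 4 genes, 3 lower and 1 higher. Among all genes limma with the block called 1242 lower and 896 higher (8.36% and 6.03%), and edgeR with the block 1229 and 891, against 55 and 55 in limma without it. DESeq2 without a block called 1 KLF gene lower (*Klf2*) and 490 genes lower and 318 higher, and with the block 1 KLF gene lower (*Klf4*, while *Klf2* had an adjusted p of 0.0515) and 560 lower and 382 higher. limma without the trend called 0 genes lower and 2 higher. Leaving out 1 library at a time gave 0 to 3 KLF genes called lower and 0 to 0 higher, and 0 to 41 lower and 1 to 76 higher among all genes. Pseudocounts of 0.5 and 10, no filter, a mean of at least 50, recentring on medians, quantile normalization and a fold change above 1.5 changed no KLF call. The causes of these differences were not tested.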
